A study of Mus musculus with 13 samples.

Results

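The transcripts of 7 amino acid transporters, Slc7a5, Slc7a1, Slc7a2, Slc3a2, Slc38a2, Slc38a4 and Slc1a5, were followed by symbol among the 21868 genes of a table of normalized counts from mouse gastrocnemius, a calf muscle. All 7 had a row and all 7 reached the mean of 10 normalized counts needed for testing. The mice were males labelled C57BL/6, of the substrain C57BL/6N by the study's account of its sequencing, 7 weeks old on entry, made obese over 15 to 17 weeks on a diet with 60 kcal% fat and then moved to standard chow. For the next 3 weeks, 5 vehicle-treated mice (labelled Vehicle+placebo, mice 1 to 5) received phosphate-buffered saline. Another 5 mice (Semaglutide+placebo, mice 13 to 17) received 30 nM/kg per day of semaglutide, an agonist of the GLP-1 receptor that lowers food intake, by intraperitoneal injection. The remaining 3 mice (Semaglutide+ketone ester, mice 19, 21 and 22) received the same dose with a ketone ester, a precursor of β-hydroxybutyrate, at 0.114 g/mL in the drinking water. No group received the ketone ester without semaglutide, and all mice, controls included, had gone from the high-fat diet to chow.

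Amino acids cross the muscle plasma membrane through carriers with overlapping substrates. LAT1, the product of Slc7a5, exchanges leucine and other large neutral amino acids for intracellular ones, and reaches the membrane only when bound to the heavy chain 4F2hc, the product of Slc3a2. CAT-1 and CAT-2, the products of Slc7a1 and Slc7a2, carry arginine, lysine and ornithine without a heavy chain. SNAT2 and SNAT4, the products of Slc38a2 and Slc38a4, take up small neutral amino acids such as alanine and glutamine together with sodium, and ASCT2, the product of Slc1a5, exchanges glutamine and other small neutral amino acids. Slc38a2 is known as a gene that cells induce when amino acids run short, and leucine that has entered a muscle fibre is a signal to the growth kinase complex mTORC1. Transcript levels do not measure transport, and the transporters are also regulated by their movement to and from the membrane.

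Between 15319471 and 23498162 reads were counted on genes per mouse, and whole reads could be recovered from the normalized counts. The 10 skeletal muscle markers summed to 1893241 to 4091048 normalized counts in every mouse. No threshold was set and no other muscle was compared, so these sums do not test the label of gastrocnemius. On the first principal component, which held 38.1% of the variance, semaglutide mouse 13 scored -9.12, whereas the other 4 semaglutide-treated mice scored 31.8 to 52.5 and the other groups -25.6 to -12.8. Calls of the 7 transporters that change without this mouse are given both ways. Differences were tested with limma on log2(normalized count + 1) over the 12303 genes with a mean of at least 10, with all 3 groups in 1 model. A gene was called when its p, adjusted over all of these genes by Benjamini and Hochberg, was under 0.05. The replicates were separate mice. Each group enters 2 of the 3 comparisons, and a high value under semaglutide raises the difference from vehicle while it lowers the other.

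The order of the transporters was first read per length, as normalized counts per kb of the gene's combined exons, because a longer transcript collects more reads. This length joins the exons of all annotated transcripts, 8838 bases for Slc38a2 and 4261 for Slc38a4. Which transcripts the muscle used was not determined, so the order depends on this divisor. Before division, Slc38a2 had the higher vehicle mean, 3829 normalized counts against 2163 for Slc38a4. In vehicle-treated mice, Slc38a4 was at 508 ± 84.1 counts per kb (SD, n = 5) and Slc38a2 at 433 ± 82.8. These 2 sodium-coupled carriers overlapped each other, and every mouse had more of both than any mouse had of the next gene. Slc7a2 at 141 ± 35.6, Slc3a2 at 134 ± 8.83 and Slc1a5 at 94.9 ± 33.5 counts per kb formed a middle group in which each overlapped its neighbour. Slc7a5 at 14.3 ± 3.90 and Slc7a1 at 7.31 ± 1.06 counts per kb were the lowest and did not overlap. The order of the upper part differed under treatment. Under semaglutide, Slc7a2 had the highest mean, 518 ± 220 counts per kb (SD, n = 5), but its mice overlapped those of Slc38a4 at 395 ± 79.1, which overlapped Slc38a2 at 387 ± 84.8. Under semaglutide + ketone ester, Slc7a2 at 321 ± 30.7 counts per kb (SD, n = 3) again overlapped Slc38a4 at 313 ± 21.2, while Slc38a2, at 184 ± 22.6, lay below both and above Slc3a2, at 136 ± 12.5, in every mouse. Slc7a5 and Slc7a1 stayed last, and under semaglutide these 2 overlapped.

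**Figure D1:**
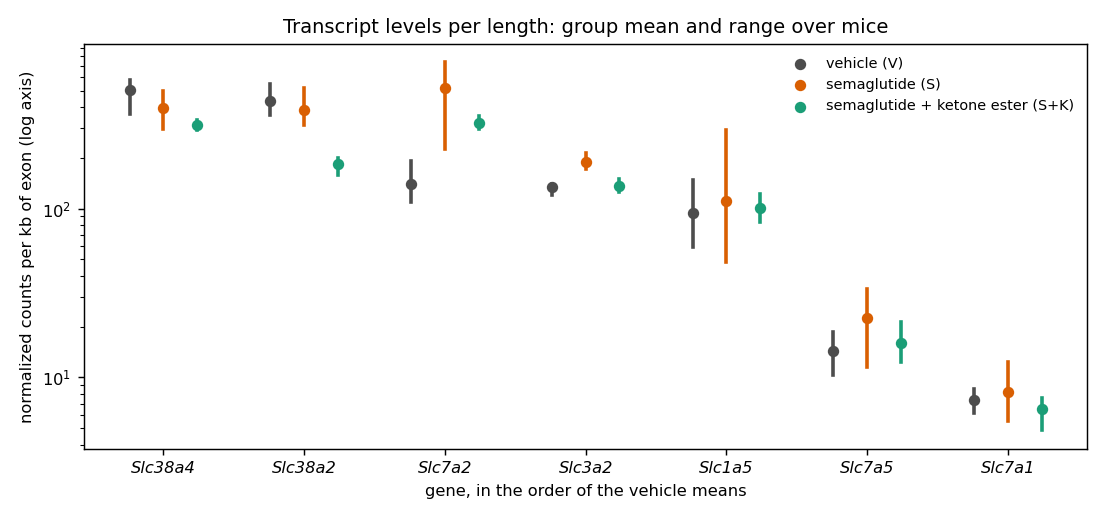
Normalized counts per kb of combined exons on a log axis for the 7 transporters in vehicle-treated (n = 5), semaglutide-treated (n = 5) and semaglutide + ketone ester-treated mice (n = 3). Points are means and lines span the lowest to the highest mouse. Slc7a2 moves from 141 under vehicle to 518 under semaglutide, and Slc38a2 from 433 under vehicle to 184 under semaglutide + ketone ester.

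The effect of semaglutide alone was examined first. Transcripts of the cationic carrier Slc7a2 and of the heavy chain Slc3a2 rose under semaglutide, by 3.44-fold and 1.41-fold, and in both genes the lowest semaglutide value exceeded the highest vehicle value. The other 5 transporters were not called. Their log2 fold changes ran from -0.37 for Slc38a4 to 0.62 for Slc7a5. The 2 called of 7 stand against 25.1% of all genes tested in this comparison (11.9% higher and 13.2% lower), so the share of transporters called was near the background. The groups did not overlap in 2 of the 7 transporters and in 14.7% of genes tested. edgeR on the recovered reads called the same 2 transporters and 26.9% of genes. The median log2 fold change of the 7 was 0.11, beside -0.0029 over all genes tested. Without semaglutide mouse 13, limma called 4 of the 7, adding Slc7a5 and Slc38a4, against 36.2% of genes.

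**Figure D2:**
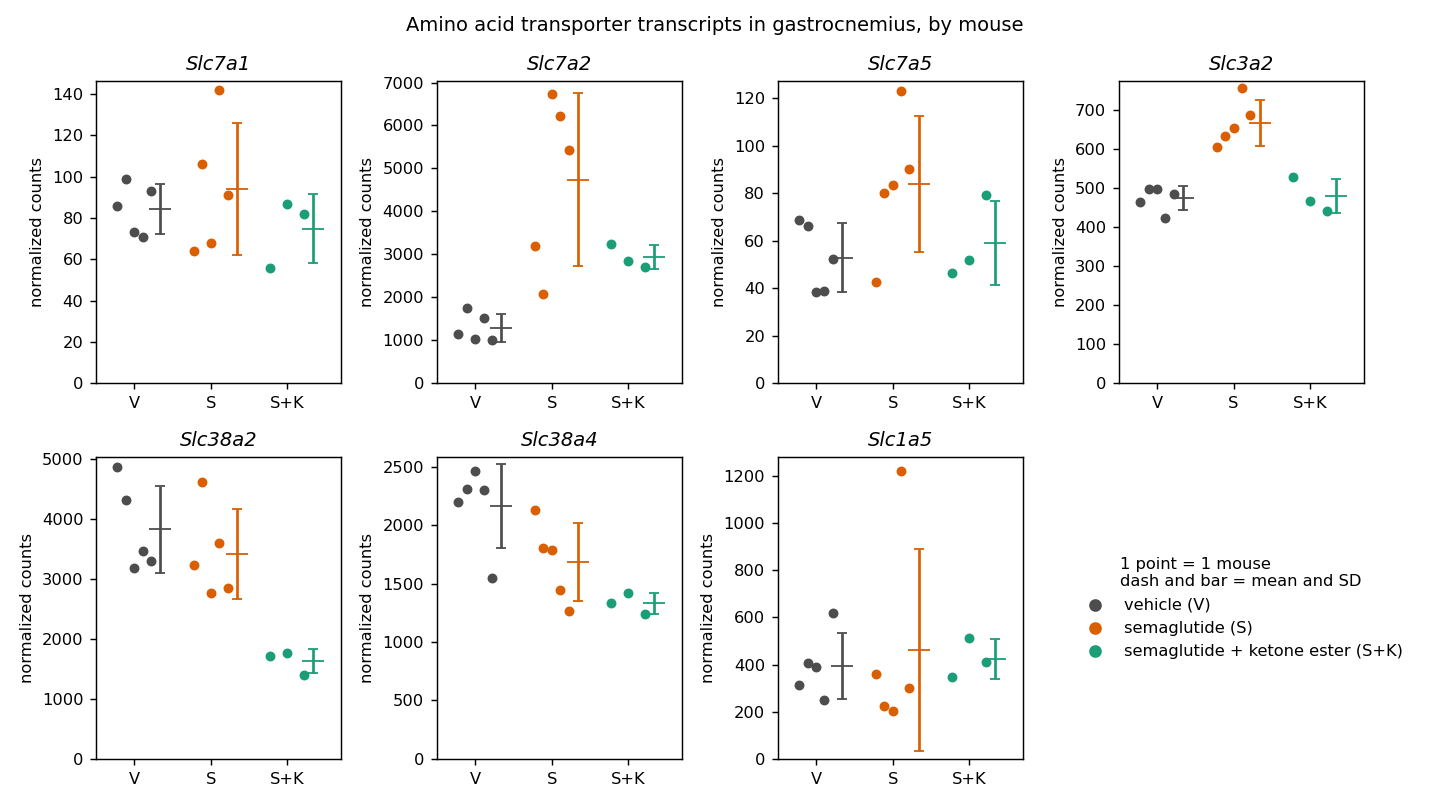
Normalized counts of each transporter by mouse in the 3 groups, where V is vehicle (n = 5), S is semaglutide (n = 5) and S+K adds the ketone ester (n = 3). Points are mice in order of mouse number, dashes are means and bars are SDs. Slc7a2 and Slc3a2 are higher in all semaglutide-treated than in all vehicle-treated mice, Slc38a2 is between 1401 and 1767 in the S+K mice, and 1 semaglutide-treated mouse holds 1222 counts of Slc1a5.

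Slc3a2 (ENSMUSG00000010095.13, minus strand of chromosome 19, 8706882 to 8723369, GRCm38) encodes the heavy chain that LAT1 and several other light chains need to reach the membrane. Vehicle-treated mice 1 to 5 had 465, 498, 497, 424 and 484 normalized counts. Semaglutide-treated mice 13 to 17 had 605, 633, 653, 757 and 686. The semaglutide + ketone ester-treated mice had 528, 467 and 442. The 5 semaglutide values all lay above the other 8, which overlapped each other. The semaglutide mean of 667 ± 58.5 (SD, n = 5) exceeded the vehicle mean of 474 ± 31.2 (SD, n = 5) by a log2 fold change of 0.49 (standard error 0.09, limma adjusted p = 0.0022). Mice given the ketone ester averaged 479 ± 44.3 (SD, n = 3), lower than under semaglutide by a log2 fold change of -0.48 (standard error 0.10, limma adjusted p = 0.0080). Against vehicle the log2 fold change was 0.02, with a 95% interval of -0.20 to 0.23. Slc3a2 had the smallest spread of the 7 in vehicle-treated and semaglutide-treated mice, with coefficients of variation of 6.58% and 8.76%, where counting error alone would give 4.98% and 3.79%. The call against semaglutide was lost when only these 2 groups were in the model (limma adjusted p = 0.051).

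Slc7a5 (ENSMUSG00000040010.10, minus strand of chromosome 8, 121881150 to 121907694), the leucine-carrying partner of Slc3a2 in LAT1, was scarce, with 31 to 127 reads per mouse. The values under vehicle were 68.7, 66.2, 38.4, 38.8 and 52.4 normalized counts. Under semaglutide they were 42.6, 80, 83.3, 123 and 90.3, and with the ketone ester 46.2, 51.9 and 79.3. Semaglutide mice 14 to 17 lay above all vehicle-treated mice, while mouse 13 lay within their range. The log2 fold change of semaglutide against vehicle was 0.62 (standard error 0.27, limma adjusted p = 0.11), and without mouse 13 it was 0.84 (limma adjusted p = 0.013). Neither semaglutide + ketone ester against semaglutide, at -0.46 with a 95% interval of -1.14 to 0.22, nor against vehicle, at 0.16 with an interval of -0.52 to 0.84, passed the threshold. The first of these intervals includes the difference of -0.48 measured for Slc3a2, so the data do not separate the partners. Per Slc3a2 read in the same mouse, there were 0.112 ± 0.0291 Slc7a5 reads under vehicle (SD, n = 5), 0.124 ± 0.0335 under semaglutide (SD, n = 5) and 0.126 ± 0.0476 with the ketone ester (SD, n = 3), and all 3 groups overlapped. Slc7a5 overlaps the gene Gm20388 on the opposite strand, and how strand was treated in counting is not given in the sources used here.

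Slc7a2 (ENSMUSG00000031596.15, plus strand of chromosome 8, 40862396 to 40922308) encodes the cationic amino acid carrier CAT-2. Vehicle-treated mice had 1137, 1742, 1039, 1516 and 1004 normalized counts. Semaglutide-treated mice had 3206, 2070, 6730, 6230 and 5441, and semaglutide + ketone ester-treated mice had 3245, 2843 and 2705. The semaglutide-treated mice were spread widely, with 2 of them, mice 13 and 14, below the highest mouse given the ketone ester and the other 3 well above it. The mean rose from 1288 ± 325 (SD, n = 5) to 4736 ± 2010 (SD, n = 5), the difference on the log2 scale being 1.78 (standard error 0.30, limma adjusted p = 0.0018), and the call was made in all 12 alternative fits and in all 13 fits that each left out a mouse. Mice given the ketone ester averaged 2931 ± 281 (SD, n = 3). Its log2 difference from semaglutide was -0.57, with a 95% interval of -1.31 to 0.18 (limma adjusted p = 0.26). The 3 ketone ester-treated mice also lay above all 5 vehicle-treated mice, at a log2 fold change of 1.22 with a 95% interval of 0.47 to 1.96, which limma did not call over all genes (adjusted p = 0.21) and DESeq2 did (adjusted p = 0.012). The gene's 5 annotated transcripts, which are known to give carriers of different affinity, are summed in these counts. Slc7a2 also overlaps a long noncoding RNA gene, Gm26584, on the opposite strand.

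Slc7a1 (ENSMUSG00000041313.14, minus strand of chromosome 5, 148327410 to 148399904) encodes CAT-1, the cationic carrier found in most dividing cells. Its values were 85.8, 98.7, 73.0, 71.0 and 93.1 normalized counts under vehicle, 63.8, 106, 67.8, 142 and 91.0 under semaglutide, and 55.9, 87.0 and 81.7 with the ketone ester. All 3 groups overlapped. The log2 fold changes were 0.11 for semaglutide against vehicle (95% interval -0.35 to 0.56), -0.29 for semaglutide + ketone ester against semaglutide (-0.82 to 0.24) and -0.18 against vehicle (-0.71 to 0.35), with limma adjusted p from 0.43 to 0.88. Within a mouse, 15.5 ± 4.12 reads of Slc7a2 were counted per read of Slc7a1 under vehicle (SD, n = 5). The ratio was 54.5 ± 29.1 under semaglutide (SD, n = 5), where mouse 14 at 19.5 lay within the vehicle range of 10.8 to 21.4 and the other 4 lay above it. It was 41.3 ± 14.6 with the ketone ester (SD, n = 3), where all 3 mice lay above that range.

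**Figure D3:**
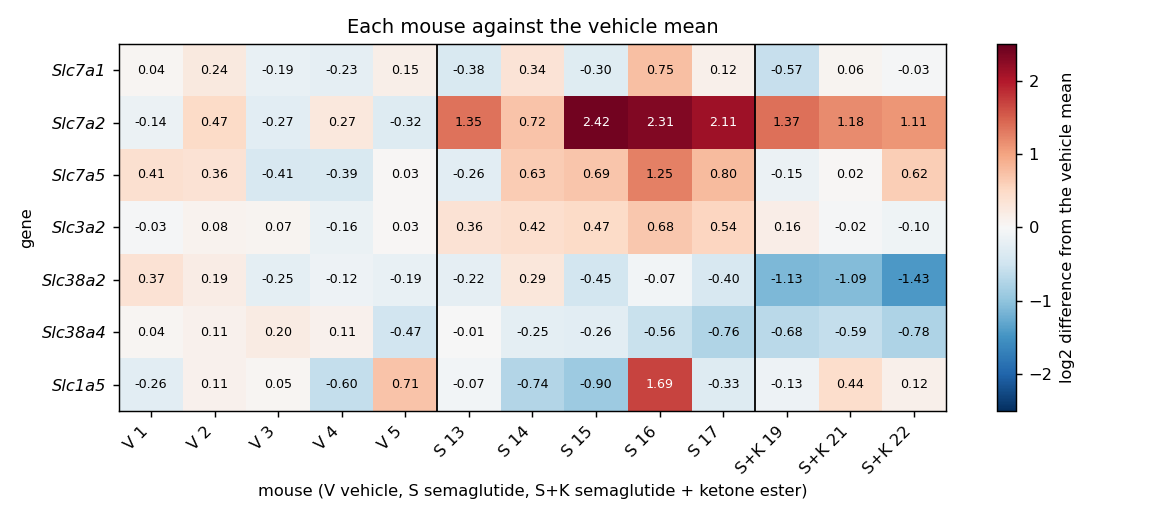
Log2 difference of each mouse from the vehicle mean for the 7 transporters, with mice grouped by treatment and the value printed in each cell. Semaglutide mouse 13 is 1.35 above the vehicle mean for Slc7a2 and 0.26 below it for Slc7a5, while mice 15, 16 and 17 are 2.11 to 2.42 above it for Slc7a2.

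The addition of the ketone ester to semaglutide was examined next. Compared with semaglutide alone, Slc38a2 fell by 51.7% and Slc3a2 by 28.1%, and in both genes all 3 semaglutide + ketone ester-treated mice lay below all 5 semaglutide-treated mice. The 2 called of 7 stand against 18.4% of genes tested (9.09% higher and 9.30% lower), and non-overlapping groups in 2 of 7 against 20.1%. edgeR on the recovered reads called the same 2 transporters, and 20.8% of genes. The median log2 difference of the 7 was -0.46, beside -0.00024 over all genes, and 6 of the 7 had a negative sign. Without semaglutide mouse 13, the same 2 transporters were called, against 32.2% of genes.

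Compared with vehicle, semaglutide + ketone ester-treated mice differed in Slc38a2, which was lower. This was 1 of 7 transporters against 0.236% of genes tested, 29 of 12303, of which 0.0732% of genes were higher and 0.163% lower. By p-value Slc38a2 ranked 9 of 12303. In edgeR 0.366% of genes were called, Slc38a2 among them, and in limma without semaglutide mouse 13, 0.626%, again with Slc38a2. Groups did not overlap in Slc7a2, Slc38a2 and Slc38a4, 3 of the 7, whereas 11.3% of all genes were without overlap. The median log2 difference of the 7 was 0.02, beside -0.0059 over all genes.

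**Figure D4:**
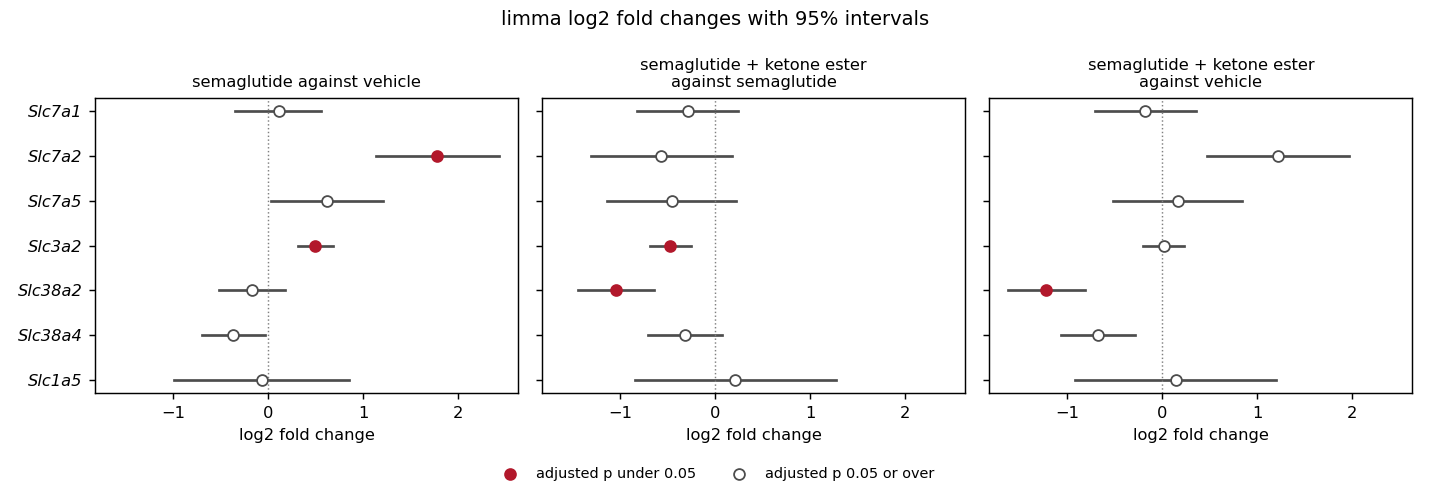
Log2 fold changes (points) with 95% intervals (lines) from limma for the 7 transporters in the 3 pairs of groups. Filled points have an adjusted p under 0.05 over all genes tested. Slc7a2 and Slc3a2 are filled for semaglutide against vehicle, Slc3a2 and Slc38a2 for semaglutide + ketone ester against semaglutide, and Slc38a2, at -1.22, for semaglutide + ketone ester against vehicle.

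Slc38a2 (ENSMUSG00000022462.7, minus strand of chromosome 15, 96687392 to 96699730) encodes the sodium-coupled carrier SNAT2. Vehicle-treated mice had 4870, 4316, 3183, 3466 and 3309 normalized counts, and semaglutide-treated mice 3242, 4619, 2769, 3600 and 2855. In semaglutide + ketone ester-treated mice the values were 1722, 1767 and 1401. Vehicle and semaglutide overlapped through most of their range, and the 3 ketone ester-treated mice lay below all 10 others. The means were 3829 ± 732 (SD, n = 5), 3417 ± 749 (SD, n = 5) and 1630 ± 200 (SD, n = 3). Semaglutide against vehicle gave a log2 fold change of -0.17 with a 95% interval of -0.52 to 0.18 (limma adjusted p = 0.47). Adding the ketone ester, Slc38a2 was lower than under semaglutide alone by a log2 fold change of -1.05 (standard error 0.19, limma adjusted p = 0.0040), a call made in all 12 alternative fits and in all 13 fits without a mouse. Against vehicle the log2 fold change was -1.22 (standard error 0.19, limma adjusted p = 0.030). That call was close to the threshold. The log2 difference stayed between -1.28 and -1.11 when each mouse was left out, but the limma adjusted p was 0.052 without vehicle mouse 1, 0.064 without vehicle mouse 2, 0.056 without vehicle mouse 3, and 0.071, 0.12 and 0.15 without semaglutide + ketone ester mice 19, 21 and 22.

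Slc38a4 (ENSMUSG00000022464.14, minus strand of chromosome 15, 96994820 to 97055956) lies on the same chromosome and encodes SNAT4, a related carrier of neutral amino acids that also accepts cationic ones. Vehicle-treated mice had 2200, 2310, 2461, 2297 and 1544 normalized counts, and semaglutide-treated mice 2126, 1801, 1785, 1446 and 1261. The semaglutide + ketone ester-treated mice had 1332, 1423 and 1243. The ketone ester-treated mice lay below all vehicle-treated mice, and the semaglutide-treated mice overlapped both other groups. Limma called none of the 3 differences, of which 2, those from vehicle, had an unadjusted p under 0.05, edgeR called none either, and DESeq2 called that of semaglutide + ketone ester from vehicle. Semaglutide differed from vehicle by -0.37 on the log2 scale (standard error 0.16, limma adjusted p = 0.10). With the ketone ester added, the differences were -0.32 from semaglutide (standard error 0.18, limma adjusted p = 0.23) and -0.68 from vehicle (standard error 0.18, limma adjusted p = 0.17). Semaglutide against vehicle was called without vehicle mouse 5, the low mouse of its group (-0.48, limma adjusted p = 0.032), and without semaglutide mouse 13 (-0.46, limma adjusted p = 0.034). Reads of Slc38a2 per read of Slc38a4 numbered 1.80 ± 0.398 under vehicle (SD, n = 5), 2.08 ± 0.506 under semaglutide (SD, n = 5) and 1.22 ± 0.0819 with the ketone ester (SD, n = 3). The ketone ester range, 1.13 to 1.29, lay below the semaglutide range of 1.53 to 2.57 and reached the lowest vehicle-treated mouse, at 1.29, so within a mouse Slc38a2 was lower relative to Slc38a4 than under semaglutide alone.

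**Figure D5:**
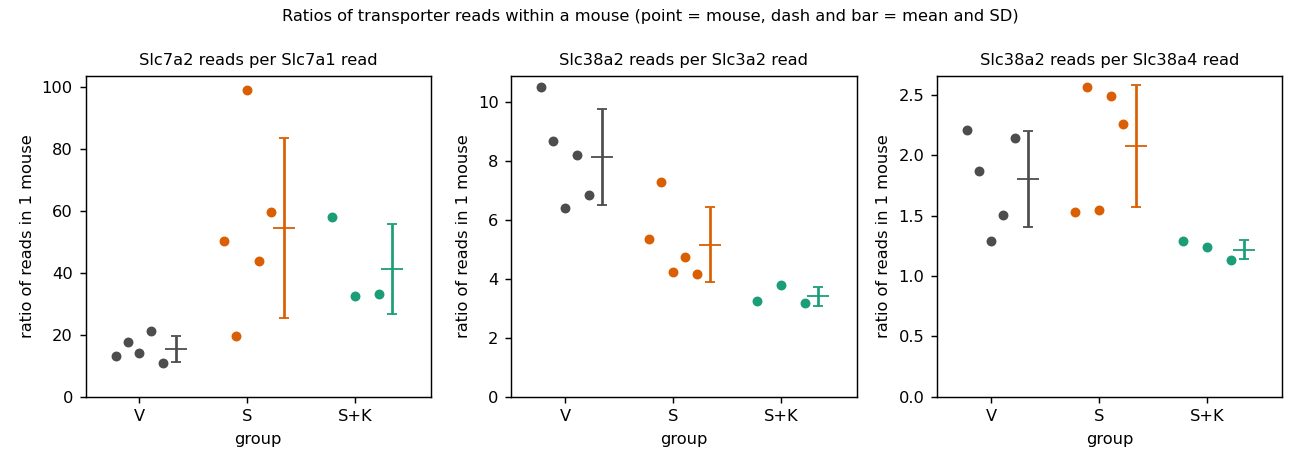
Ratios of recovered reads of 2 transporters within a mouse, which do not depend on how libraries were scaled, in each group, where V is vehicle, S is semaglutide and S+K adds the ketone ester. Points are mice, dashes are means and bars are SDs. Slc38a2 reads per Slc3a2 read average 8.11, 5.16 and 3.40 in the 3 groups.

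Slc38a2 and Slc3a2, the 2 genes called in the comparison with semaglutide, were set against each other within a mouse. This ratio restates the values given above, free of library scaling. Slc38a2 reads per Slc3a2 read numbered 8.11 ± 1.63 under vehicle (SD, n = 5), 5.16 ± 1.28 under semaglutide (SD, n = 5) and 3.40 ± 0.329 with the ketone ester (SD, n = 3). The ketone ester mice, at 3.17 to 3.78, lay below both other groups, and vehicle and semaglutide overlapped through semaglutide mouse 14, at 7.29.

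Sequence before the start site is shown for Slc3a2 and Slc38a2, the 2 transporters that fell with the ketone ester, and for Slc38a4, the relative of Slc38a2 that was not called. The stretches come from RefSeq promoters of build GRCm38.p6, which held 4 of the 7 transporters (Slc7a1, Slc3a2, Slc38a2 and Slc38a4) with 7 start sites. The 250 bases before each start site were searched on both strands for TGATGNAA, the core of the amino acid response element, for the E-box CACGTG, for the forkhead motif GTAAACA, and for the general promoter motifs GGGCGG (GC box), CCAAT and TATAA. Capitals mark the matches, and bases inside annotated exons of the gene are left out. The Slc3a2 stretch is chr19:8713898-8713960, that of Slc38a2 is chr15:96699731-96699978 and that of Slc38a4, at the first of its 3 start sites, is chr15:97055957-97056206, all minus strand and written 5′ to 3′. The Slc3a2 start site used lies inside the annotated gene, whose 5′ end is at 8723369, and 63 of its 250 bases are printed.
Slc3a2: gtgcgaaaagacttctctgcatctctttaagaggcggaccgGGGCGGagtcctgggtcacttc
Slc38a2: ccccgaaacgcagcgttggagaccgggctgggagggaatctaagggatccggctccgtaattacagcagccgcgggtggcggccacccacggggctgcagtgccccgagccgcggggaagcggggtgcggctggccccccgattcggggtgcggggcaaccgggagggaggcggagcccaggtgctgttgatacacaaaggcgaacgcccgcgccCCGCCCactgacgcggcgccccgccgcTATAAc
Slc38a4: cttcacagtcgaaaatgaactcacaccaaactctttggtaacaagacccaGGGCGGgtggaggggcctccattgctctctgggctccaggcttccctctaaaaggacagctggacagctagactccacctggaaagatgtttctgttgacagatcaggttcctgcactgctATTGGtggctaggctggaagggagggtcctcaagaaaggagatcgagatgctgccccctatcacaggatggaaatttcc
A GC box lay 22 bases before the Slc3a2 start, 35 before the Slc38a2 start and 200 before the Slc38a4 start, a motif held by 32.7% of all 32851 promoters searched in windows of the same length. TATAA lay 8 bases before the Slc38a2 start (22.8% of promoters) and CCAAT, on the reverse strand as ATTGG, 79 bases before that of Slc38a4 (33.8%). No match overlapped one of another motif in these stretches. TGATGNAA, CACGTG and GTAAACA, held by 3.45%, 6.02% and 3.17% of promoters, matched none of the 7 windows, which says only that these letters are not in them. Response elements can lie elsewhere in a gene.

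Slc1a5 (ENSMUSG00000001918.17, plus strand of chromosome 7, 16781340 to 16798274) encodes ASCT2, the glutamine exchanger. The values were 315, 408, 390, 248 and 618 normalized counts under vehicle, 361, 225, 202, 1222 and 300 under semaglutide, and 346, 512 and 410 with the ketone ester. All 3 groups overlapped, and semaglutide mouse 16 alone held more than any other mouse, and the remaining 4 of its group ranged from 202 to 361. The log2 fold changes were -0.07 for semaglutide against vehicle (95% interval -0.99 to 0.85, limma adjusted p = 0.92), 0.21 for semaglutide + ketone ester against semaglutide (-0.85 to 1.27, limma adjusted p = 0.79) and 0.14 against vehicle (-0.92 to 1.20, limma adjusted p = 0.96). The spread of the group of 5 with mouse 16, a coefficient of variation of 92.9% against 4.55% from counting error, leaves these intervals the widest of the 7. Without mouse 16 the log2 fold change of semaglutide against vehicle was -0.51. Mouse 16 also had the highest summed level of 8 adipocyte markers, 37955 normalized counts, against 9397 to 21208 in the other 12 mice. Plin4 made up most of this sum by group mean, with 13098 normalized counts under semaglutide, beside 3428 for Fabp4 and 362 for Adipoq. Mouse 16 was likewise the highest for 8 macrophage markers, at 1594 against 419 to 1277, and for 8 neutrophil and lymphocyte markers, at 314 against 16.0 to 85.8. It was the lowest for the 10 skeletal muscle markers, at 1893241 against 2327675 to 4091048, and for the Schwann cell and erythroid markers, at 1058 and 50.5. Its fibroblast, endothelial, satellite cell, tendon and slow fibre sums lay within the range of the other mice. Semaglutide mouse 17, with the next highest adipocyte sum, 21208, held 300 counts of Slc1a5, and vehicle mouse 5, at 19426, held 618. Over all 13 mice, Slc1a5 was most alike in pattern to Ifi27l2a, an interferon-inducible gene, and Cebpa, a transcription factor of adipocytes and myeloid cells. In mouse 16 Cebpa stood at 748 normalized counts, with 66.6 to 241 in the others, and Ifi27l2a at 1128, with 25.9 to 411 in the others. Both genes were picked for likeness to Slc1a5 over these same mice, so their high values in mouse 16 follow from that choice. The part of other cell types in the Slc1a5 values was not tested. In whole muscle, fewer cells of a type and less RNA per cell cannot be told apart.

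Genes whose pattern over the 13 mice was nearest to a transporter were found by the root mean square difference of standardized log2 values, among genes with a mean of at least 100 normalized counts. This is a description with no test. The nearest genes to Slc7a2 were Ocrl, Igf1r and Tbc1d1, with differences of 0.39 to 0.41, and those to Slc3a2 were Sec31a, Hnrnpul1 and Tmbim1, with 0.30 to 0.31. The nearest to Slc38a2 were Nuak1, Aff4 and Optn, with 0.44 to 0.45, and to Slc38a4 Zfp410, Apc and Pafah1b1, with 0.34 to 0.42. Slc7a5 was nearest to Hscb, Trim25 and Zfp148, with 0.44 to 0.45, and Slc7a1 to Slmap, Gda and Ptma, with 0.49 to 0.54. The third gene of Slc1a5 was Arpc5, at 0.38. Among the transporters themselves, Slc7a2 and Slc3a2 were the most alike pair, at 0.70, followed by Slc7a5 and Slc7a1 at 0.75 and Slc38a2 and Slc38a4 at 0.77. Slc7a2 and Slc38a4 were the least alike, at 1.69. Slc7a5 lay at 0.82 from its partner Slc3a2.

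Other amino acid transporters of the plasma membrane, a list of 32 genes, had 16 with a mean of at least 10. Under semaglutide against vehicle, limma called 2 of the 16 higher and 2 lower, beside 25.1% of all genes in either direction, so the share called was near the background. Without semaglutide mouse 13 the 4 became 6, beside 36.2% of all genes. Slc6a9, a glycine transporter, had a log2 fold change of 1.30 (adjusted p = 0.00037), and Slc7a6, a light chain that pairs with Slc3a2, 0.64 (adjusted p = 0.040). Slc7a8, the LAT2 light chain that also pairs with Slc3a2, had -0.69 (adjusted p = 0.014), and Slc6a17, a transporter best known from neurons, -1.49 (adjusted p = 0.0025). Between semaglutide + ketone ester and semaglutide, Slc6a9 fell, at -0.79 (limma adjusted p = 0.015), the 1 gene called of 16, beside 18.4% of all genes. That count was 4 without semaglutide mouse 13, 2 without semaglutide mouse 16 and 0 without semaglutide + ketone ester mouse 22. Against vehicle, limma, edgeR and DESeq2 each called 0 of the 16, where limma called 0.236% of all genes. In limma 3 of the 16 had an unadjusted p under 0.05, as did 1289 of all 12303 genes. Median log2 differences of the list were 0.26, -0.22 and 0.05 in the 3 comparisons.

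Of 8 transporters of the lysosomal membrane tested, which return amino acids, peptides or other products of lysosomal breakdown to the cytosol, 4 were higher under semaglutide than vehicle, where 11.9% of all genes were higher. These were the peptide and histidine transporter Slc15a4 (log2 fold change 0.87, limma adjusted p = 0.045), the cystine transporter Ctns (0.49, limma adjusted p = 0.023), the cationic amino acid transporter Pqlc2 (0.38, limma adjusted p = 0.037) and Slc36a1 (0.34, limma adjusted p = 0.033), which exports small amino acids with protons. Slc15a4 and Slc36a1 were lower when the ketone ester was added, at -1.16 and -0.50 (limma adjusted p = 0.032 and 0.015), where 9.30% of all genes were lower. These counts changed when most of the mice were left out in turn. The genes called over the whole table also changed, from 2065 to 4450 and from 861 to 3959 in the 2 comparisons. The 4 became 2 without vehicle mouse 1 or 2, 1 without vehicle mouse 4 or semaglutide mouse 14, 15 or 17, and 0 without vehicle mouse 5. The 2 became 1 without semaglutide mouse 14, 15 or 17 or semaglutide + ketone ester mouse 19 or 21, and 0 without mouse 22, and 3 without semaglutide mouse 13. Against vehicle, semaglutide + ketone ester gave 0 calls in limma and edgeR, which called 0.236% and 0.366% of all genes. DESeq2 called 1 of the 8, and 171 genes over the whole table. In limma 1 of the 8 had an unadjusted p under 0.05, as did 1289 of all 12303 genes.

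In the machinery that reports amino acids to mTORC1, 38 genes were tested. Under semaglutide, 5 were higher and 3 lower than under vehicle, a share below the 25.1% of all genes called. They included Sesn1, of the leucine-sensing sestrin family, at 1.30 (limma adjusted p = 0.038), Nprl3 of the inhibitory GATOR1 complex at 0.45 (limma adjusted p = 0.0078), Sec13 of GATOR2 at 0.44 (limma adjusted p = 0.0024) and the Ragulator subunit Lamtor1 at -0.43 (limma adjusted p = 0.026). The other 4 were Tsc1 and Akt1s1, which were higher, and Castor2 and Wdr59, which were lower. Adding the ketone ester, 1 was higher and 4 lower than under semaglutide, a share below the 18.4% of all genes. These were Tsc1, an inhibitor of the pathway, at -0.54 (limma adjusted p = 0.0035), Sec13 at -0.51 (limma adjusted p = 0.0039), Wdr59 of GATOR2 at 0.36 (limma adjusted p = 0.025), Akt1s1 at -0.31 (limma adjusted p = 0.045) and Bmt2 at -0.31 (limma adjusted p = 0.041). Without semaglutide mouse 13, 19 and 18 were called in these comparisons, beside 36.2% and 32.2% of all genes. For semaglutide against vehicle, 5 were called without vehicle mouse 3 or 4 or semaglutide mouse 15, 4 without vehicle mouse 2 or semaglutide mouse 17, and 3 without vehicle mouse 5. Against semaglutide, 3 were called without vehicle mouse 1, 2, 3 or 4, semaglutide mouse 14 or 17, or semaglutide + ketone ester mouse 19, and 2 without mouse 21 or 22. Semaglutide + ketone ester against vehicle gave 0 calls in limma, edgeR and DESeq2, where limma called 0.236% of all genes. In limma 2 of the 38 had an unadjusted p under 0.05, as did 1289 of all 12303 genes.

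Of 20 genes of the amino acid response, the program through which ATF4 induces transporters and synthetic enzymes, limma called 2 higher and 1 lower under semaglutide, a share below the 25.1% of all genes. Eif4ebp1, a repressor of translation, had the largest change, the vehicle mean being 549 ± 75.6 normalized counts (SD, n = 5) and the semaglutide mean 3606 ± 1696 (SD, n = 5), at a log2 fold change of 2.48 (adjusted p = 0.0019). Atf4 itself had 0.56 (limma adjusted p = 0.0085), and Aldh1l2, a mitochondrial enzyme of folate metabolism, -1.07 (limma adjusted p = 0.047). The same 3 genes were called in the opposite direction when the ketone ester was added, at -2.15, -0.69 and 1.96 (limma adjusted p = 0.011, 0.0088 and 0.0088), in a comparison that uses the same semaglutide-treated mice and in which 18.4% of all genes were called. Without semaglutide mouse 13, 8 and 6 genes were called, beside 36.2% and 32.2% of all genes. Semaglutide + ketone ester against vehicle gave 0 calls in limma, edgeR and DESeq2, where limma called 0.236% of all genes. In limma 1 of the 20 had an unadjusted p under 0.05, as did 1289 of all 12303 genes.

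Of 10 genes known to regulate transporter abundance, 3 were called under semaglutide, near the 25.1% of all genes, and 5 with the ketone ester against semaglutide, beside 18.4% of all genes. Myc, a transcription factor known to drive transporter genes, had a log2 fold change of 1.16 under semaglutide (limma adjusted p = 0.0040) and -1.53 with the ketone ester (limma adjusted p = 0.0033). Foxo1, a transcription factor of fasting and atrophy, fell stepwise, from 1742 ± 725 normalized counts (SD, n = 5) to 813 ± 195 (SD, n = 5) and 389 ± 142 (SD, n = 3), and was called against vehicle at -2.12 (limma adjusted p = 0.028), where 0.236% of all genes were called. Rnf5, a ubiquitin ligase for ASCT2 and SNAT2, had -0.32 under semaglutide (limma adjusted p = 0.045). When the ketone ester was added, Foxo1 at -1.09 (limma adjusted p = 0.033), Foxo3 at -0.53 (limma adjusted p = 0.046), the ubiquitin ligase Nedd4l at -0.47 (limma adjusted p = 0.035) and its relative Itch at -0.36 (limma adjusted p = 0.019) were lower than under semaglutide. The call of Foxo1 against vehicle was lost without vehicle mouse 1, 2 or 3 or semaglutide + ketone ester mouse 21 or 22, and the 5 called against semaglutide became 1 without mouse 21 or 22, 2 without semaglutide mouse 15 or 17 and 3 without semaglutide mouse 16. Without semaglutide mouse 13, 5 were called for semaglutide against vehicle and 6 for semaglutide + ketone ester against semaglutide, beside 36.2% and 32.2% of all genes.

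Some markers of other cells in the muscle differed between groups too. Under semaglutide against vehicle, 13.2% of all genes tested were called lower and 11.9% higher. With the ketone ester against semaglutide, 9.09% were called higher and 9.30% lower. Of 8 fibroblast markers, 7 were lower under semaglutide than vehicle and 6 higher with the ketone ester than under semaglutide. Their sum was 5898 to 13174 normalized counts under vehicle, 5219 to 6938 under semaglutide and 7514 to 12222 with the ketone ester. Of 5 tendon markers, Tnmd, Fmod and Thbs4 were lower under semaglutide, and Tnmd was higher and Scx lower with the ketone ester, with sums of 1253 to 6717, 745 to 2713 and 3234 to 3991. Of 5 erythroid markers, Alas2, Hba-a1, Hba-a2 and Hbb-bs were higher with the ketone ester than under semaglutide, with sums of 1356 to 2291, 50.5 to 3148 and 2849 to 5558. Satellite cell markers summed to 492 to 632, 697 to 1321 and 554 to 583, and of the 5 tested Cdh15 was called, higher under semaglutide and lower with the ketone ester.

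Of 10 skeletal muscle markers, Mb, Pvalb, Myh4 and Acta1 were lower and Actn3 higher under semaglutide than vehicle, beside 13.2% and 11.9% of all genes. The first 4 and Tnnt3 were higher, and Actn3 lower, when the ketone ester was added, beside 9.09% and 9.30% of all genes. Sums of the 10 were 2816156 to 3373576, 1893241 to 3176449 and 3517202 to 4091048. Of 7 slow fibre markers, only Myl3 was lower under semaglutide, beside 13.2% of all genes, with sums of 9724 to 39595, 8934 to 24967 and 14192 to 26782. Of 8 endothelial markers, Emcn and Kdr were higher with the ketone ester than under semaglutide, beside 9.09% of all genes. Their list summed to 4737 to 5863, 4810 to 5370 and 5180 to 6096. In the 8 adipocyte, 8 macrophage and 8 Schwann cell markers, limma gave 0 calls in any pair of groups. Only 1, an adipocyte marker under semaglutide against vehicle, had an unadjusted p under 0.05, as did 4744 of all 12303 genes. Of 8 neutrophil and lymphocyte markers only Ptprc reached a mean of 10, and Ly6g was at 0 in every mouse. The part of these markers in the transporter results was not tested.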

How the data were processed

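Gastrocnemius RNA of 13 mice was sequenced, and the labels give all of them the same batch. The authors extracted RNA with TRIzol, prepared Illumina stranded mRNA libraries and sequenced paired reads of 59 bases. Their processing notes name DRAGEN, DESeq2 and mm10. The counting program, annotation and strand setting are not given in the sources used here. The deposited values are a normalized signal per gene, with 1 column per mouse, namely read counts divided by a factor per mouse. Whole reads, recovered for 100.0% of values (tolerance 0.05), gave 15319471 to 23498162 reads per mouse. The 95% intervals come from limma and include the spread between mice, while the counting errors given cover counting alone.

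Groups came from the treatment label. With limma 3.58.1 (R 4.3.3), log2(normalized count + 1) of the 12303 genes with a mean of at least 10 was fitted with all 3 groups. Fold changes on this scale understate the change of genes with low counts. edgeR 4.0.16 and DESeq2 1.42.0 on recovered reads were 2 of 12 alternatives, and each mouse was left out in turn. All 7 transporters are named. From other lists, counts called and up to 4 called genes with the largest change per comparison are named, while cell type markers and further genes of counts of 5 or fewer were named after their values were seen. The transporters and the lists were chosen with earlier results of these data known. Gene models came from GENCODE M21 (GRCm38). Pqlc2 was found by its older symbol, and 2 listed symbols without a row were aliases of listed genes.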

Additional observations from a re-analysis of the deposited data

Results flagged for a closer look

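In 1 of the 14 groups of 5 mice examined, 7 transporters in 2 groups, a single mouse lay apart from the rest. For Slc38a4 in vehicle-treated mice, the gap between mouse 5, at 1544 normalized counts, and the next mouse, at 2200, made up 0.76 of the range of the group on the log2 scale, above the 95% critical value of 0.71. Chance alone gives such a gap in about 1 in 20 groups. Without vehicle mouse 5, the log2 fold change of semaglutide against vehicle for Slc38a4 was -0.48 and was called (limma adjusted p = 0.032). The groups of 3 mice were too small for this check.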

How the results depend on the processing

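Of the 7 transporters, 2 were called for semaglutide against vehicle, and 4 with limma arrayWeights (adding Slc7a5 and Slc38a4). Leaving out each mouse gave 2 to 4. For semaglutide + ketone ester against semaglutide, 2 were called, 1 (Slc38a2) when only the groups compared were in the fit, and 2 to 2 when each mouse was left out. Against vehicle, 1 was called, 0 without a filter on low values (Slc38a2 at adjusted p = 0.066), 2 with arrayWeights (adding Slc38a4), 3 with DESeq2 (adding Slc7a2 and Slc38a4), and 0 to 1 when each mouse was left out. Slc7a2 and Slc3a2 against vehicle, and Slc38a2 against semaglutide, were called in all 12 alternatives. Signs changed for uncalled differences. With columns rescaled to equal totals, log2 fold changes of semaglutide against vehicle became 0.0045 for Slc38a2 and 0.10 for Slc1a5, that of semaglutide + ketone ester against semaglutide -0.02 for Slc1a5, and that against vehicle -0.05 for Slc3a2. For Slc1a5, edgeR and DESeq2 gave 0.25 and 0.24 in the first comparison and -0.14 and -0.14 in the second. Leaving out mice gave, in the first comparison, -0.06 to 0.23 for Slc7a1 and -0.51 to 0.14 for Slc1a5, and against vehicle with the ketone ester -0.07 to 0.32 for Slc7a5, -0.30 to 0.01 for Slc7a1, -0.06 to 0.07 for Slc3a2 and -0.01 to 0.32 for Slc1a5. Equal totals moved the median of all genes by 0.17, -0.24 and -0.07 in the 3 comparisons, and the genes called higher and lower from 1459 and 1625 to 3262 and 929 in the first and from 1118 and 1144 to 611 and 3587 in the second. Under that scaling Slc38a4 was called with the ketone ester against semaglutide, at -0.55. The causes were not tested. Over the 12 alternatives, called genes of the other lists numbered 3 to 7 and 1 to 5 for plasma membrane transporters, 1 to 5 and 0 to 4 for lysosomal transporters, 4 to 19 and 2 to 16 for amino acid sensing, 2 to 7 and 0 to 7 for the amino acid response, and 2 to 5 and 2 to 6 for regulators, in the first and second comparisons. Genes called over the whole table numbered 3084, 2262 and 29, and 4847, 4279 and 205 with arrayWeights. They numbered 751 in the second with only the groups compared, and 171 in the third with DESeq2. Leaving out each mouse gave 2065 to 4450, 861 to 3959 and 1 to 77, the highest each time without semaglutide mouse 13. No paired analysis was possible because the labels give the groups no shared replicate numbers. Slc7a5 and Slc7a1 had counting errors of 10.1% to 14.9%, which limit what these depths can show.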
